A study of Rattus norvegicus with 4 samples.

Results

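The genes described here encode the proteasome, the large protease that degrades ubiquitin-tagged proteins, together with its activators, assembly chaperones and inhibitor. They were taken from the deposited table as every row whose symbol starts with Psm, a letter from a to g and a digit, which gave 48 of 17853 genes. By their known place in the complex these were 7 genes of the alpha ring, 3 constitutive catalytic beta subunits (Psmb5, Psmb6, Psmb7), 4 other beta subunits, the 3 catalytic subunits of the immunoproteasome (Psmb8, Psmb9, Psmb10), 6 ATPases and 11 other subunits of the 19S particle, and the subunits Psme1 and Psme2 of the activator PA28. The others were 3 chaperones of the 19S particle, 4 of the 20S core, the activator Psme4, the inhibitor Psmf1, and Psma8 and Psmb11, known from testis and thymus. Psmc3ip also carries a matching symbol. It encodes a recombination factor named for binding the ATPase Psmc3 and is no subunit. Psme3 was not analysed here.

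The series sequenced polyadenylated RNA from the brains of rats after intracerebral hemorrhage, in which a vessel bleeds into the tissue. The 4 groups were the ipsilateral side, that of the bleeding, and the contralateral side at 13 months of age, called adult, and the same sides at 21 months, called old. Each group was 1 library of pooled RNA. The protocols name 9 rat brains without saying whether each library drew on all of them, and all groups, contralateral ones included, came from animals with a hemorrhage, so no library is from an uninjured rat. The strain, the model of hemorrhage and the time after it are not given in the labels.

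Values are RPKM as the authors deposited them, that is, read numbers divided by gene length and by library size. Levels are set side by side between genes on that basis, although the gene lengths used are not given. Differences are given as log2 ratios after adding 1 RPKM, called the side ratio when ipsilateral is divided by contralateral, and a ratio of at least 1 is a 2-fold change. Ipsilateral values come first throughout (a against b RPKM). With 1 library a group a ratio at 1 age has no replicate check and no test. As a secondary summary limma, a linear model with a spread shared across genes, was fitted to all 4 libraries with side and age as terms. Since 1 degree of freedom is left, which holds how far the side ratios of the ages differ, a gene is said to have risen where the mean of both ratios was large against that difference and the pooled spread, which a small ratio at 1 age does not prevent. The threshold was a Benjamini-Hochberg adjusted p under 0.05 over the 12160 genes whose mean reached 1 RPKM. Of the 48 members 45 passed that filter. The 3 others were Psmb6, Psma8 and Psmb11. Psma8 was listed at 0.01 to 0.06 RPKM and Psmb11 at 0.10 to 0.56 RPKM over the 4 libraries.

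RPKM summed to between 388632 and 402100 per library, and mitochondrially encoded genes took 18.5% to 24.1% of the sums, less on the ipsilateral side at each age. Defining markers of brain tissue were present throughout: the 6 neuronal markers (Rbfox3, Snap25, Syt1, Map2, Elavl4, Tubb3) were at 32.0 RPKM or more in every library. The depth of the libraries is unknown, since the table gives no counts. In bulk tissue a change in the number of cells of a type and a change of RNA per cell cannot be told apart, for these or any other genes.

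The 20S core of the proteasome is a barrel of outer alpha rings and inner beta rings. Psmb5, Psmb6 and Psmb7 carry its chymotrypsin-like, caspase-like and trypsin-like sites. Under interferon gamma, cells also make Psmb8, Psmb9 and Psmb10, which are built into new cores in place of Psmb5, Psmb6 and Psmb7 and cut proteins into peptides that suit MHC class I molecules. The 19S particle recognises and unfolds tagged proteins, and PA28, a ring of Psme1 and Psme2 that interferon gamma also induces, opens the core without ubiquitin. In brain the constitutive form is known to prevail, and immunoproteasome is known from microglia and infiltrating leukocytes.

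The promoters of the 5 inducible genes are shown because the results turn on these genes. They are RefSeq sequences of build GRCr8, from 250 bases before to 50 after the start of each gene, 5′ to 3′ on the gene's strand, and the build behind the RPKM table is not settled. Capitals mark each match, on either strand, to the letters GAAA, any 2 bases and GAAA, the core of the interferon-stimulated response element that interferon regulatory factors bind.
Psmb8, chr20:4656982-4657281, minus strand: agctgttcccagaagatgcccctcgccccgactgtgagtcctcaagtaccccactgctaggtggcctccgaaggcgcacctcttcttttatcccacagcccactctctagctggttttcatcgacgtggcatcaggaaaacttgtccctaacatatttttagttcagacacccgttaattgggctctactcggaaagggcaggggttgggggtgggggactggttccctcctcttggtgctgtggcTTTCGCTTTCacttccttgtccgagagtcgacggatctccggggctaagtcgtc
Psmb9, chr20:4668750-4669049, plus strand: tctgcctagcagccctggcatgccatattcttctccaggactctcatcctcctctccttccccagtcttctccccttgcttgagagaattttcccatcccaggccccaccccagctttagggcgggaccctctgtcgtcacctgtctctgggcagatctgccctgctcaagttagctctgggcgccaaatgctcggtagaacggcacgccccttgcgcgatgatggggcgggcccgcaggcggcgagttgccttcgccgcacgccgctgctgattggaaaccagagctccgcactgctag
Psmb10, chr19:50743243-50743542, minus strand: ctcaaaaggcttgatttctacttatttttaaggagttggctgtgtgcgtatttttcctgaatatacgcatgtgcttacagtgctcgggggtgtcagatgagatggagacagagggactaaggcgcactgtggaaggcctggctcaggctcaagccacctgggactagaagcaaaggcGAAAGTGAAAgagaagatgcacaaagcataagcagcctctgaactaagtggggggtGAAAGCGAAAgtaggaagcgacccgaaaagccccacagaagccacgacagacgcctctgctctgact
Psme1, chr15:33038721-33039020, plus strand: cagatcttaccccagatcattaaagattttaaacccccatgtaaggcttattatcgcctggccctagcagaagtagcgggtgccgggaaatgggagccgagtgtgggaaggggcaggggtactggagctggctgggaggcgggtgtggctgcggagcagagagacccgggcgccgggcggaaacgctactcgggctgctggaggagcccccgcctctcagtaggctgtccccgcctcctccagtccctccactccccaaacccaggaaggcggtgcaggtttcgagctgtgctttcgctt
Psme2, chr15:33052702-33053001, minus strand: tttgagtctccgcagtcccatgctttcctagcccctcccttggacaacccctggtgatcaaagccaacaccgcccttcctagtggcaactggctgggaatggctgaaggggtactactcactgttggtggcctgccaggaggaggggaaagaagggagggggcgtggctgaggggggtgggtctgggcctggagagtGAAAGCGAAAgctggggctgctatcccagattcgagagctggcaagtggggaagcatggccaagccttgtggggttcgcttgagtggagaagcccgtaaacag

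Of these 5 windows 3 held a match: Psmb10 with 2, and Psmb8 and Psme2 with 1 each. Of all 33469 RefSeq windows of this length 3.92% held one, and of the 38 other members with a window 4 did, namely Psma4, Psmb3, Psmd7 and Psmg4. The matches of Psme2 and Psmb10 and that of Psmb8 read GAAAGCGAAA or GAAAGTGAAA on one strand or the other. Those of Psmb3 and Psmg4, which are not among the 5 inducible genes, likewise read GAAAGTGAAA on one strand or the other. Psmb9 and the peptide transporter gene Tap1 lie head to head on chromosome 20, and their windows shared 44 bases. TTCNNNGAA, the gamma-activated sequence (its own reverse complement), was found in the window of Psmb8 alone of the 5, in 3 of the 38 others (Psmd3, Psmc6, Psmd7) and in 8.87% of all windows. The antioxidant response element core TGACNNNGC, on either strand, was in 0 of the 5 and in 8 of the 38 others, among them Psmb5 and Psmb6, against 12.1% of all windows. In the windows of the 5 genes no match overlapped one of another motif. A match is a match of letters and not a measured binding site, and its absence says only that these letters are not in this window.

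The immunoproteasome subunits were higher on the bleeding side at both ages. Psmb9 (ENSRNOG00000000459, chromosome 20), which replaces Psmb6, was at 26.7 against 6.08 RPKM at 13 months and at 15.8 against 6.98 RPKM at 21 months. Both ipsilateral values lay above both contralateral ones, and the 13 month ipsilateral library was the highest. The ratio of RPKM was 4.39 at 13 months and 2.27 at 21 months, with log2 side ratios of 1.97 and 1.08. Psmb8 (ENSRNOG00000000456, chromosome 20), which replaces Psmb5, was lower in level, at 3.84 against 0.93 RPKM at 13 months and at 5.24 against 1.82 RPKM at 21 months. Its highest value was thus in the 21 month ipsilateral library. The RPKM ratio was 4.13 and then 2.88, which the added 1 RPKM reduces to log2 side ratios of 1.33 and 1.15, and with 0.1 RPKM added these were 1.94 and 1.48.

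Psmb10 (ENSRNOG00000019494, chromosome 19), which replaces Psmb7, was the most abundant of the 3. Its values were 79.2 against 32.8 RPKM at 13 months and 56.1 against 41.2 RPKM at 21 months. The sides did not overlap here either, but the old libraries lay closer together: the log2 side ratio was 1.24 at 13 months and 0.44 at 21 months. All 3 subunits had a smaller side ratio in the older animals, by 0.89 for Psmb9, 0.81 for Psmb10 and 0.18 for Psmb8, a difference that 4 libraries leave without a test.

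The subunits of PA28 were higher ipsilaterally by a similar amount. Psme1 (ENSRNOG00000019041, chromosome 15) was at 131 against 65.4 RPKM at 13 months and at 150.0 against 71.4 RPKM at 21 months, log2 side ratios of 0.99 and 1.06. Psme2 (ENSRNOG00000019246, chromosome 15) was at 63.6 against 25.5 RPKM and then at 51.8 against 27.0 RPKM, log2 side ratios of 1.29 and 0.92. For both genes the 2 ipsilateral libraries lay above the 2 contralateral ones. Psme1 exceeded Psme2 in every library, by 2.06 to 2.89 times. Among the 5 inducible genes Psme1 was the 1 whose side ratio was larger at 21 months.

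**Figure D1:**
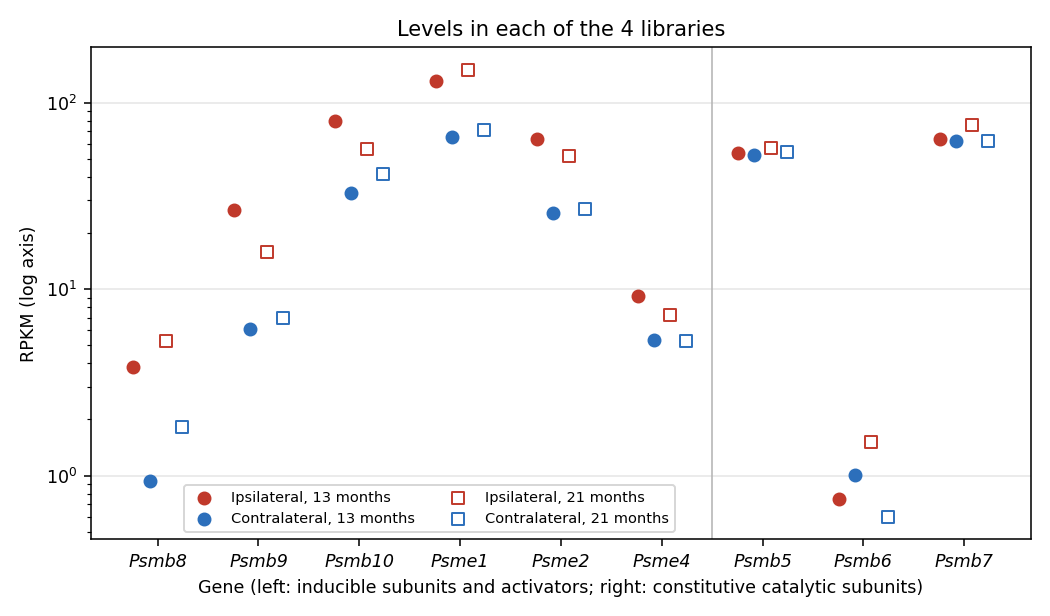
RPKM on a log axis of 6 inducible or activator genes and 3 constitutive catalytic subunits; each point is 1 library, red for ipsilateral, blue for contralateral, filled circles for 13 months and open squares for 21 months. Red points lie above blue ones at both ages for Psmb8, Psmb9, Psmb10, Psme1, Psme2 and Psme4, the 4 points of Psmb5 lie between 52.7 and 57.3 RPKM, and Psmb6 lies at 0.60 to 1.52 RPKM.

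In counts, 4 of 45 members reached a log2 side ratio of 1 at 13 months, where 7.19% of 12160 genes did, and 3 of 45 at 21 months, where 5.61% did. The members were Psmb8, Psmb9, Psmb10 and Psme2 at 13 months and Psmb8, Psmb9 and Psme1 at 21 months. No member was lower by as much at either age (0.0658% and 0.288% of all genes). The share of members is close to that of all genes, and the members past the threshold all belong to the 5 inducible genes. Psmb8 and Psmb9 reached it at both ages, as 4.75% of all genes did. Scaling the libraries by their median ratio or by the sum over nuclear genes left 1 member past 1 at 21 months, Psmb8 (1.06 with either). The median log2 side ratio of the 5 inducible genes was 1.29 at 13 months and 1.06 at 21 months, that of the 30 constitutive subunits measured 0.12 at both, and that of all genes 0.01 and 0.09.

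Over both ages limma called 6 of the 45 members as risen ipsilaterally, where 13.3% of all genes rose, and 0 as fallen, where 0.814% fell (an unadjusted p under 0.05 was found for 8 members that were higher and 0 that were lower, and for 18.9% and 4.47% of all genes). Psmb9 rose by a log2 change of 1.52 ± 0.20 (SE from limma over 2 libraries a side, adjusted p = 3.9e-06). Psmb8 rose by 1.24 ± 0.17, Psme2 by 1.10 ± 0.17, Psme1 by 1.03 ± 0.17 and Psmb10 by 0.84 ± 0.19. The adjusted p of Psmb10 was 0.0030 in limma, and it became 0.053 with nuclear scaling and 0.066 without the age term. The sixth was Psme4 (ENSRNOG00000060340, chromosome 14), which encodes PA200, a large activator found mainly in the nucleus. It was at 9.19 against 5.36 RPKM at 13 months and at 7.23 against 5.27 RPKM at 21 months, so that the sides did not overlap. It rose by 0.54 ± 0.17 (limma adjusted p = 0.039), and this call was lost under 6 of the 7 other settings tried with all 4 libraries, with adjusted p from 0.053 to 0.21 in limma. Without the filter on low values limma called none of the 17853 genes (2641 were higher at an unadjusted p under 0.05), and the adjusted p of the 5 inducible genes was then 0.095 to 0.29. Both ipsilateral values were above both contralateral ones for all 5 inducible genes and for 26 of 45 members, and so they were for 34.4% of all genes.

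With single libraries left out and side as the only term, Psmb9 passed limma in each of the 4 fits. Psmb8 did not pass without the 13 month contralateral library (adjusted p = 0.087) or the 21 month ipsilateral one (0.051), and Psme1 and Psme2 did not pass without the 13 month contralateral library (0.067 and 0.051). Psmb10 passed in 1 of these 4 limma fits, that without the 21 month ipsilateral library. Psme4 passed without either ipsilateral library (adjusted p = 0.049 and 0.013) and not without either contralateral one (0.45 and 0.52).

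The constitutive counterparts differed little between the sides. Psmb5 (ENSRNOG00000013386, chromosome 15) was at 53.4 against 52.7 RPKM at 13 months and at 57.3 against 54.5 RPKM at 21 months. Psmb7 (ENSRNOG00000011732, chromosome 3) was at 64.2 against 62.4 RPKM and then at 75.7 against 62.1 RPKM. Their log2 side ratios were 0.02 and 0.04 at 13 months and 0.07 and 0.28 at 21 months, and limma called neither (adjusted p = 0.91 and 0.64). At 13 months the sign is set by the scaling: scaled to nuclear genes both were below 0 (-0.08 and -0.06), and Psmb5 was also below 0 at 21 months with that scaling (-0.04) and with the median ratio (-0.03). Psmb6 (ENSRNOG00000019551, chromosome 10) stood far from them, at 0.75 against 1.01 RPKM at 13 months and 1.52 against 0.60 RPKM at 21 months. Its sides changed order between the ages, at a level where single values are least certain.

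Each constitutive core is known to need this subunit, and its listed level is reported as uncertain. RefSeq lists 3 further loci named after Psmb6 (Psmb6l1 and 2 pseudogenes), and no source used here gives the authors' rule for reads that match several loci. The same holds for other members, among them Psme1, Psme2 and Psma7 with 3 such loci each, Psmb7 with 2 and Psmb3 with 10. RefSeq names 0 for Psmb8, Psmb9 and Psmb10. Psmb3 was at 45.0 to 57.3 RPKM and Psma7 at 151 to 211 RPKM, and whether such loci alter a listed level was not tested. Besides Psmb6, Pomp, a maturation factor of the core, was low, at 1.99 to 3.30 RPKM, as was the ubiquitin fusion gene Rps27a at 1.05 to 1.42 RPKM.

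The level of an inducible subunit against its counterpart in the same library needs no scaling between libraries. It does rest on the gene lengths used and on how reads were assigned to genes, and neither is given. Psmb8 made up 6.71% of the summed RPKM of Psmb8 and Psmb5 in the 13 month ipsilateral library and 1.74% in the contralateral one. At 21 months it made up 8.39% and 3.23%. By RNA level Psmb5 thus exceeded Psmb8 in all 4 libraries, while the make-up of assembled cores was not measured. Psmb10 made up 55.2% of the sum of Psmb10 and Psmb7 ipsilaterally and 34.5% contralaterally at 13 months, and 42.6% and 39.8% at 21 months. Only in the 13 month ipsilateral library did Psmb10 exceed Psmb7, by 1.23 times. The part of Psmb9 was 85.8% to 97.3% of the sum with Psmb6, which follows from the low listed level of Psmb6 and was not read further.

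**Figure D2:**
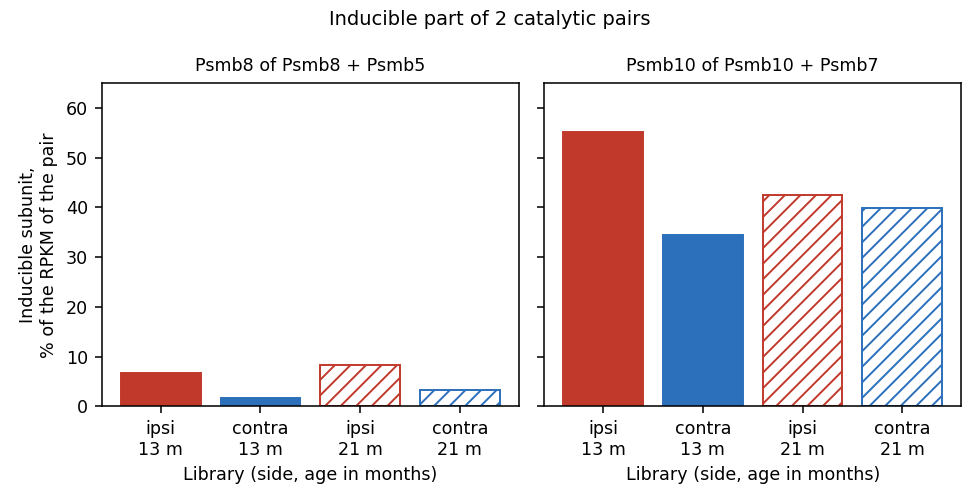
RPKM of the inducible subunit as a percentage of the sum with its constitutive counterpart, for Psmb8 with Psmb5 (left) and Psmb10 with Psmb7 (right); each bar is 1 library, red ipsilateral, blue contralateral, hatched for 21 months. The 13 month ipsilateral library has the highest bar for Psmb10 (55.2%) and the 21 month ipsilateral library that for Psmb8 (8.39%).

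The rest of the 20S core was slightly higher ipsilaterally at 13 months. All 7 genes of the alpha ring, through which substrates enter, had side ratios above 0 at that age, from 0.13 for Psma3 to 0.45 for Psma6. At 21 months 4 of them were above 0, Psma2 was at 0, and Psma7 (-0.19) and Psma4 (-0.50) were below 0. Psma1 was at 45.1 against 39.0 RPKM at 13 months and at 43.7 against 34.5 RPKM at 21 months, and Psma6 at 51.4 against 37.3 RPKM at 13 months and at 42.4 against 37.0 RPKM at 21 months. Psma5 was at 60.8 against 51.8 RPKM and then at 73.5 against 44.4 RPKM. Its log2 side ratios were 0.23 and 0.72, the larger being the highest of any constitutive subunit with a Psm symbol. The 4 structural beta subunits Psmb1, Psmb2, Psmb3 and Psmb4 had ratios of 0.17 to 0.34 at 13 months and of 0.13 to 0.63 at 21 months. Their ipsilateral values lay above the contralateral ones without overlap, as did those of 34.4% of all genes. Psmb2 was at 31.8 against 26.7 RPKM and then at 33.5 against 25.9 RPKM. Psmb4 was at 58.3 against 51.7 RPKM at 13 months and at 74.9 against 48.1 RPKM at 21 months.

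Over the core 13 of 13 constitutive genes measured were above 0 at 13 months, against 50.8% of all genes, and 10 of 13 at 21 months, against 60.8%. With nuclear scaling these were 11 and 9 of 13. In limma 0 of the 13 passed, with an unadjusted p under 0.05 for 2, Psma5 and Psmb4 (adjusted p = 0.090 and 0.16, side changes of 0.47 and 0.40). Over all genes 13.3% rose and 0.814% fell, and 18.9% were higher and 4.47% lower at an unadjusted limma p under 0.05.

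The 19S particle showed no common direction. Its 6 ATPases, which unfold substrates and open the gate of the core, had side ratios of -0.21 to 0.04 at 13 months and of -0.36 to 0.51 at 21 months. Psmc5 was the lowest at both ages, at 176 against 204 RPKM and then at 158 against 203 RPKM. Psmc4 was at 61.5 against 60.1 RPKM and then at 81.9 against 57.2 RPKM. Psmc3 was above 0 by little at 13 months (0.04 and then 0.26) and Psmc2 was at 0.00 and -0.11; the first ratio of either lies within the shift that scaling brings. The 11 other subunits had ratios of -0.07 to 0.32 at 13 months and of -0.40 to 0.59 at 21 months. Psmd7, of the lid, was below 0 at both ages (-0.07 and -0.13), and Psmd11, another lid subunit, was above 0 at both (0.32 and 0.16). Psmd8, also of the lid, was at 26.9 against 24.9 RPKM and then at 32.9 against 23.3 RPKM, and Psmd13 at 63.5 against 61.7 RPKM and then at 83.6 against 55.4 RPKM. Psmd4, a ubiquitin receptor, was at 114 against 102 RPKM at 13 months and at 85.3 against 109 RPKM at 21 months, so that the order of the sides turned. Psmd14, the lid deubiquitinase, likewise went from 84.0 against 68.5 RPKM to 58.0 against 64.2 RPKM. In limma 0 of these 17 passed, where 13.3% of all genes rose and 0.814% fell. An unadjusted limma p under 0.05 was found for 0 of the 17, and for 18.9% (higher) and 4.47% (lower) of all genes.

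**Figure D3:**
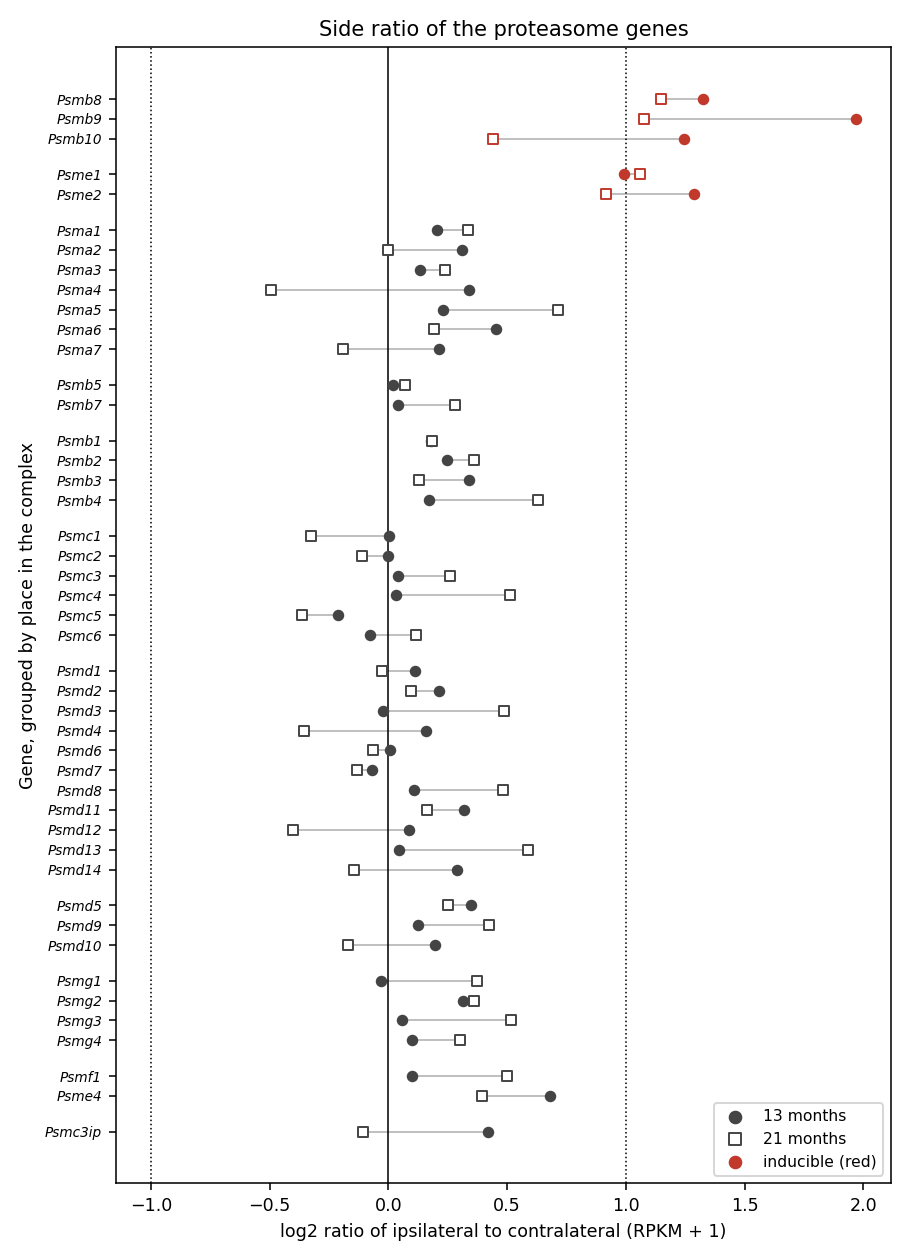
Log2 side ratio (1 RPKM added) for the 45 members measured, grouped by place in the complex; filled circles are 13 months, open squares 21 months, red marks the 5 inducible genes, and dotted lines mark a 2-fold change. The red points lie at 0.44 to 1.97, while the constitutive subunits lie between -0.21 and 0.45 at 13 months and between -0.50 and 0.72 at 21 months.

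Assembly factors and other regulators were mostly above 0, as were 50.8% of all genes at 13 months and 60.8% at 21 months. The core chaperones were above 0 in 3 of 4 cases at 13 months (2 of 4 with nuclear scaling). At 21 months they were so in 4 of 4, with either scaling. The 4 chaperones of the core, Psmg1 to Psmg4, had side ratios of -0.03 to 0.31 at 13 months and of 0.30 to 0.52 at 21 months. Psmg2 was the lowest in level and above 0 at both ages (0.31 and 0.36). Psmg3 was at 13.8 against 13.3 RPKM and then at 17.9 against 12.2 RPKM. Of the 19S chaperones Psmd5 was above 0 at both ages (0.35 and 0.25), as was Psmd9 (0.12 and 0.42), while Psmd10, also called gankyrin, turned from 0.20 to -0.17. The inhibitor gene Psmf1 was at 19.4 against 18.1 RPKM and then at 24.6 against 17.1 RPKM. Psmc3ip, the matching symbol that is no subunit, was at 21.3 against 15.7 RPKM and then at 14.4 against 15.6 RPKM. None of these 9 genes passed limma (0 also at an unadjusted p under 0.05), where 13.3% of all genes rose and 0.814% fell.

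At 21 months the constitutive subunits spread apart. The SD of their side ratios over 30 genes was 0.15 at 13 months and 0.33 at 21 months, and their interquartile range was 0.20 and 0.45. Over 5510 other genes whose mean reached 10 RPKM the interquartile range was 0.46 and 0.45 and the SD 0.59 and 0.55. By either measure the subunits were closer together than these genes at 13 months, and at 21 months by the SD but not by the interquartile range. The wider spread went with the 21 month ipsilateral library. Between the ages the contralateral libraries differed little, with age ratios of -0.23 to 0.10 and an SD of 0.08 over the 30 subunits, whereas the ipsilateral libraries gave -0.86 to 0.49 and an SD of 0.32. Over the 5510 other genes the interquartile range of the age ratio was likewise larger ipsilaterally (0.44) than contralaterally (0.14).

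The direction at 21 months differed with the level of the subunit. Of 10 constitutive subunits at 100 RPKM or more in the 13 month contralateral library 7 were below 0 at 21 months and 2 above, at a median of -0.16, whereas at 13 months 8 of these 10 were above 0 (5 with nuclear scaling). Of the 20 under 100 RPKM 16 were above 0 at 21 months, at a median of 0.21. With nuclear scaling 8 of 10 and 6 of 20 were below 0. Other genes, without that scaling, were likewise grouped by level in the 13 month contralateral library. At 100 RPKM or more, 276 of 491 were below 0 at 21 months and 160 were above 0 at 13 months. At 10 to 100 RPKM, 2594 of 4698 were above 0 at 21 months. Across the 30 subunits the log2 level in that library, which enters no ratio at 21 months, and the 21 month side ratio were related with Pearson's r at -0.64 and Spearman's rho at -0.70. Across 5510 other genes r was -0.30. That level is no independent measure, since across the 30 subunits the log2 levels of both contralateral libraries were related with r at 0.997. These are descriptions across genes that share the same libraries, chosen after the values were seen. Among the 45 members measured the largest turn was that of Psma4 (ENSRNOG00000013493, chromosome 8), the 1 member whose side ratios had opposite signs and a size of at least 0.2 at both ages, as in 5.71% of all genes. It was at 187 against 147 RPKM at 13 months and at 102 against 145 RPKM at 21 months.

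**Figure D4:**
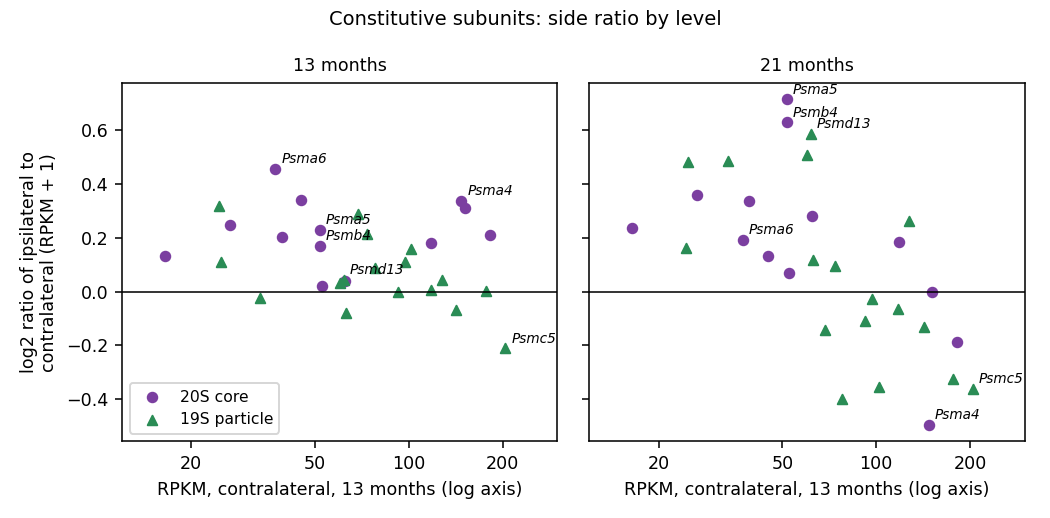
Log2 side ratio of the 30 constitutive subunits measured at 13 months (left) and 21 months (right) against RPKM in the 13 month contralateral library on a log axis, which is also part of the ratio on the left; circles are genes of the 20S core and triangles of the 19S particle. At 21 months 16 of the 20 points under 100 RPKM lie above 0, the highest being Psma5 (0.72) in the middle of the axis, and 7 of the 10 at 100 RPKM or more lie below 0 (with nuclear scaling 14 above and 8 below).

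Summed levels of the constitutive subunits were closer between the sides than those of the inducible genes. The 13 constitutive core genes summed to 1160 against 982 RPKM at 13 months and to 1001 against 947 RPKM at 21 months. The 17 genes of the 19S particle summed to 1576 against 1546 RPKM and to 1490 against 1533 RPKM. The 5 inducible genes summed to 304 against 131 RPKM at 13 months and to 279 against 148 RPKM at 21 months.

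Between the ages no member reached a 2-fold change on either side. On the ipsilateral side the background was 0.321% of genes higher and 0.658% lower at 21 months, or 0.222% and 0.864% with median-ratio scaling. On the contralateral side it was 0.206% and 0.132%. All 5 inducible genes were above 0 contralaterally, with log2 age ratios of 0.55 for Psmb8, 0.32 for Psmb10, 0.17 for Psmb9, 0.13 for Psme1 and 0.08 for Psme2, against an all-gene median of -0.03. Psmb8 and Psmb10 exceeded every other member there. Ipsilaterally they went apart: Psmb8 (0.37) and Psme1 (0.19) were higher at 21 months, and Psmb9 (-0.72), Psmb10 (-0.49) and Psme2 (-0.29) lower. These ratios share libraries with the side ratios above and are no separate evidence.

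Genes that act with the immunoproteasome in antigen presentation had side ratios in the same range. Of 9 measured genes of MHC class I peptide loading 8 rose in limma and 0 fell (13.3% and 0.814% of all genes), at median side ratios of 0.98 and 0.80. Tap1, a subunit of the peptide transporter, was at 7.63 against 2.43 RPKM at 13 months and at 6.85 against 2.40 RPKM at 21 months, and Tap2 was under 1 RPKM in every library. B2m, the light chain of class I molecules, was at 728 against 268 RPKM and then at 505 against 282 RPKM. RT1-CE10 (1.49 and 1.21) and RT1-A1 (1.57 and 0.80), class I heavy chains of a gene family whose reads are hard to assign, were among the highest, and Canx (0.29 and -0.05), an ER chaperone, was the 1 that did not pass. Calr, another ER chaperone, rose with 0.52 and 0.74. Of 10 measured genes of the interferon gamma pathway 8 rose and 0 fell, at medians of 1.08 and 0.47; 1 of the 8, Cxcl9, passed the filter only through its ipsilateral values. Irf1, a factor known to carry the interferon signal to these promoters, was at 18.0 against 6.23 RPKM and then at 15.9 against 6.20 RPKM. The highest ratios were those of Irf8 (2.06 and 1.92), Gbp2 (2.44 and 0.94) and Ifngr1 (1.46 and 1.47), a chain of the interferon gamma receptor. The kinase genes Jak1 (0.33 and 0.14) and Jak2 (0.56 and 0.08) did not pass. Ifng itself was listed at 0 contralaterally and ipsilaterally at 0.14 RPKM at 13 months and 0.06 RPKM at 21 months, and Nlrc5, a class I transactivator, at 0.27 to 1.02 RPKM.

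Partners of the 19S particle and core differed little. Of 15 measured partners and maturation factors 0 rose and 0 fell in limma (1 was higher at an unadjusted p under 0.05, Zfand2a, and 0 lower), at medians of -0.06 and 0.10. Over all genes 13.3% rose and 0.814% fell. Usp14 and Uchl5, deubiquitinases of the 19S particle, had ratios of -0.08 and 0.03 and of 0.08 and -0.35. The ubiquitin receptor gene Adrm1 had -0.12 and 0.39. The highest means were those of Zfand2a (0.32 and 0.66), Shfm1 (-0.03 and 0.76), a small 19S subunit now called Sem1, and Pomp (0.41 and 0.23). Ubqln2 (-0.40 and -0.08), a shuttle factor, was the lowest.

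Of 10 genes of subunit transcription and its processing 2 rose and 0 fell in limma (13.3% and 0.814% of all genes), a number near the share of all genes. Nfe2l1, the factor that raises subunit genes when proteasome activity is short, had ratios of -0.11 and -0.05 and did not pass. Nfe2l2, the oxidative stress factor, was at 45.6 against 15.6 RPKM at 13 months and at 29.7 against 15.1 RPKM at 21 months, and it rose with Maff (1.49 and 1.03), a small Maf partner. Vcp, the segregase that hands substrates to the proteasome, had 0.27 and 0.37 without passing, and Ddi2, the protease that activates Nfe2l1, had -0.07 and 0.01.

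Of 9 measured genes of ubiquitin, its activating enzymes and the Isg15 system 4 rose and 0 fell in limma (13.3% and 0.814% of all genes). All 4 belong to the interferon-induced ubiquitin-like modifier Isg15 and its enzymes. Isg15 was at 19.5 against 6.48 RPKM at 13 months and at 46.1 against 18.3 RPKM at 21 months. Usp18 (1.49 and 0.88), Ube2l6 (0.86 and 1.17) and Uba7 (0.60 and 0.67) were the others. Of the 4, Uba7 passed the filter only through its ipsilateral values of 1.42 and 2.59 RPKM, with 0.60 and 1.25 RPKM contralaterally. The main activating enzyme gene Uba1 had ratios of -0.05 and 0.31, without passing. Uba6, the other activating enzyme gene, had 0.07 and 0.05.

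**Figure D5:**
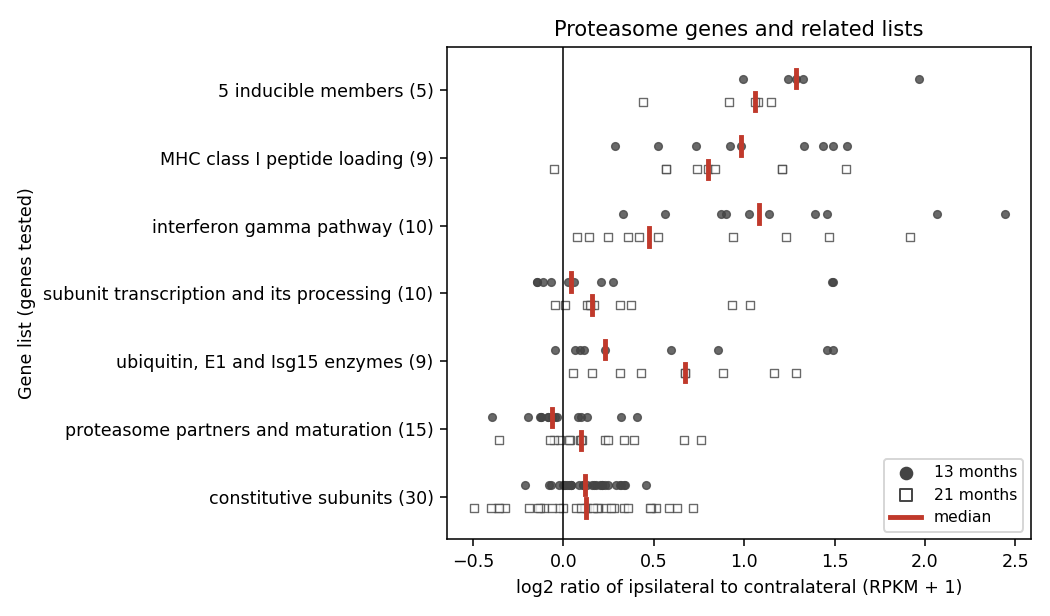
Log2 side ratios of the genes measured in 5 related lists and in the inducible and constitutive members; each point is 1 gene, circles at 13 months, open squares at 21 months, and red bars are medians. The medians of the inducible members (1.29 and 1.06) and of peptide loading (0.98 and 0.80) lie far above those of the constitutive subunits (0.12 at both ages) and of the partners (-0.06 and 0.10).

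The summed levels of the markers of microglia and macrophages and of T and NK cells were higher ipsilaterally at both ages, as was the sum of the 5 inducible genes. Of 9 markers of microglia and macrophages (Aif1, Cd68, Itgam, Csf1r, Cx3cr1, P2ry12, Tmem119, Tyrobp, Ptprc) 8 were measured, without P2ry12, and 7 rose in limma, where 13.3% of all genes did. Their RPKM summed to 283 against 61.7 at 13 months and to 214 against 52.3 at 21 months, and none was at 0. Tmem119, with side ratios of 0.18 and 0.57, was the 1 of these 8 that did not pass (limma adjusted p = 0.20). The 10 markers of T and NK cells (Cd3d, Cd3e, Cd3g, Cd8a, Cd4, Cd2, Lck, Nkg7, Gzmb, Klrd1) summed to 49.5 against 7.73 RPKM at 13 months and to 30.8 against 7.73 RPKM at 21 months. Of these 10 genes 4 passed the filter, and Cd8a, Cd2 and Lck did so only through their ipsilateral values, so that no count of calls is given. Cd4, the fourth, rose in limma. Most of that sum was Cd8a (21.8 RPKM ipsilaterally at 13 months, 8.32 RPKM at 21 months) and Cd4, which macrophages of rats are known to express too, while the T cell receptor chain gene Cd3e was at 1.11 RPKM ipsilaterally at 13 months and 0.51 RPKM at 21 months. At 0 were Gzmb and Klrd1 in the 13 month contralateral library and Klrd1 in the 21 month ipsilateral one.

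The neuronal markers summed to 749 against 1063 RPKM at 13 months and to 942 against 982 RPKM at 21 months. The 5 astrocyte markers (Gfap, Aqp4, Aldh1l1, Slc1a2, Gja1) summed to 1480 against 750.0 RPKM and to 1554 against 627 RPKM, mostly Gfap, the 1 of them that rose in limma. Of the oligodendrocyte markers Mbp was at 697 against 966 RPKM and then at 1025 against 916 RPKM, and Mag at 97.3 against 109 RPKM and then at 136 against 104 RPKM. Mog (-0.09 and 0.43) and Cnp (0.01 and 0.53) likewise had their higher side ratio at 21 months, and all 4 of these genes were highest in the 21 month ipsilateral library, the one that the wider spread of the constitutive subunits went with. The B cell markers Cd79a, Cd79b and Ms4a1 were under 1 RPKM in every library, and the plasma cell marker Igj was at 2.51 against 1.13 RPKM and then at 2.68 against 5.40 RPKM. The 3 measured endothelial markers (Cdh5, Flt1, Tek) summed to 13.9 to 15.8 RPKM in every library. In limma 0 of the neuronal and endothelial markers passed (at an unadjusted p under 0.05, Map2 was lower and Cdh5 higher), where 13.3% of all genes rose and 0.814% fell. The part of these shifts in the values of the proteasome genes was not tested.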

How the data were processed

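Polyadenylated RNA of 4 pooled samples, 1 per group, was sequenced. The values the authors deposited are RPKM with 2 decimals; cutadapt, TopHat2 and edgeR are named without versions or roles, and GRCh38, a human build, although the identifiers are rat Ensembl ones, per the submitters' processing notes. Counting and gene lengths: not given in the sources used here. Columns were matched to samples by age and side code in the titles. Depth is unknown, which leaves low values least certain.

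From these values log2(RPKM + 1) ratios were computed for the 12160 genes whose mean reached 1 RPKM. limma (version 3.58.1, R 4.3.3) with eBayes was fitted to side and age; its tests are two-sided, with Benjamini-Hochberg adjustment and a threshold of 0.05. Tested on simulated data with these 12160 genes, it recovered 100 of 100 genes changed by a log2 of 1, with 9 calls among unchanged genes. The simulation gave every gene and library the same spread and no age effect, a setting that favours recovery. It therefore checks that the fit runs correctly and does not give the error rate on these data. Nothing in the labels says that libraries are separate replicates of a side, so p-values measure only the spread between these 4 samples. Members and lists were chosen with earlier results of these data known. Named were the 5 inducible genes with their counterparts, the 2 highest and 2 lowest of each other class by the side ratio held at both ages, all called members, and the 3 highest and 2 lowest of each list beside a few fixed genes (further members were named after their values were seen). Of 113 list entries 99 matched a symbol and 2 an older name, 1 was a repeat, and 11 were not used here. Some genes of these lists are not reported here. Of the 48 members 43 had a RefSeq promoter window. The alternatives were another pseudocount, filter, scaling, threshold and limma design; leaving out libraries was added after seeing the data.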

Additional observations from a re-analysis of the deposited data

Results flagged for a closer look

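Psma4 was singled out because its side ratios had opposite signs at both ages with a size of at least 0.2, at 0.34 at 13 months and -0.50 at 21 months. It was the 1 such gene of 45 members, against 5.71% of all genes. The difference between the ages was not tested, since each rests on single libraries.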

How the results depend on the processing

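With median-ratio scaling 1 member was higher by at least 2-fold at 21 months (4.86% of all genes), and the medians at that age were 0.95 for the 5 inducible genes and 0.0188 for the constitutive subunits. With scaling to nuclear genes the count was likewise 1 (4.87%) and the medians 0.95 and 0.0121; the cause was not tested. With a 1.5-fold threshold 7 members were higher at 21 months, and 2 were lower at 21 than at 13 months ipsilaterally (13.0% and 4.20% of all genes). Without the filter limma called 0 members as risen and 0 of all 17853 genes in either direction, with an unadjusted p under 0.05 for 8 members in the higher direction and 1 in the lower (14.8% and 4.03% of all genes). With a library left out and no age term, limma called 1 to 14 members as risen and 0 to 1 as fallen; the fewest came without the 13 month contralateral library (1, Psmb9, with 5.20% of all genes risen) and the most without the 13 month ipsilateral one (14 risen, and Psma4 fallen, with 16.8% and 4.07% of all genes), and the lone library of a side is there assumed to vary like the others. With an age term such a fit has no residual degree of freedom. The other 78 values for counts and medians stayed within 1.5 times or 0.1 on the log2 scale of those reported. Psmb8 was not measured with a mean of at least 5 RPKM. The age term sets the sides against each other within an age; the labels carry no replicate numbers for any other pairing. Counting depth is unknown, which limits Psmb8, Psmb6 and other genes near 1 RPKM most.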
